A study of Mus musculus with 6 samples.

Results

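The genes described here are 47 interferon-stimulated genes, chosen by symbol as genes that interferons are known to induce. They were chosen with earlier results of these data known. Of these, 45 were found among the 22984 genes of the deposited table, and Mx1 and Mx2 were not analysed here. The series holds 6 RNA-seq libraries of mouse bone marrow mesenchymal stem cells, stromal precursors with the capacity to become osteoblasts, adipocytes and chondrocytes. Grx2+/+ (wild type) and Grx2-/- (knockout) cells gave 3 libraries each. Glrx2 encodes glutaredoxin 2 (Grx2), a mainly mitochondrial thiol-disulfide oxidoreductase, and the comparison addresses how its loss alters the transcriptome. The labels name no interferon, virus or other agent for either group, and they give no strain, age, passage or knockout method; the design text calls the cells O-BMSCs without expanding the prefix. Whether each replicate is its own animal or culture is not given in the sources used here, so the p-values reflect just the spread among these libraries, which may be technical. Values are FPKM, fragments scaled to gene length and library depth, from libraries of 40797879 to 41794919 reads.

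Interferons are cytokines released when a cell senses viral nucleic acid or other danger signals. Type I interferons bind the receptor of Ifnar1 and Ifnar2, whose kinases Jak1 and Tyk2 activate a complex that holds Stat2 and Irf9. That complex binds the interferon-stimulated response element (ISRE) in promoters, whereas the type II interferon acts through gamma-activated sequences (GAS). The induced proteins sense, degrade or sequester viral RNA, block viral entry and release, and amplify or restrain the signal. Stromal cells and macrophages carry both receptors and keep a low tonic level of these genes.

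Glrx2 had 756, 800 and 761 reads in wild type replicates 1 to 3 and 1, 0 and 0 in knockout replicates 1 to 3. On the first principal component, which held 94.5% of the variance, the genotypes separated. Within the groups, wild type replicate 2 and knockout replicate 1 were the least like the other two libraries. Of 12 mesenchymal stromal markers, 5 rose, 6 fell and 1 was not called, with changes in log2(FPKM + 1) from -2.22 to 3.72. The sum of the 12 was 7936, 6921 and 7653 FPKM across wild type and 5225, 4496 and 4720 across knockout libraries. Pdgfrb, Prrx1 and Col1a1 were present in every library, while Lepr went from 3.83 to 0.0351 FPKM. Of 10 neutrophil markers, all 10 were lower in every knockout library than in any wild type library, and their summed level was 882, 2563 and 1406 FPKM across wild type and 1.86, 1.81 and 2.12 across knockout libraries. Ly6g and Retnlg, with only 8, 37 and 17 and 5, 12 and 7 reads in wild type, were at 0 in all knockout libraries. Of 16 macrophage markers, 11 of the 14 tested rose. The sum of all 16 was 1542, 1662 and 1556 FPKM across wild type and 2499, 3405 and 3065 across knockout libraries. Most of each sum came from Lyz2, at 1141, 1283 and 1161 FPKM in wild type and 1707, 2421 and 2128 in knockout. Cd163 had only 7, 6 and 5 reads in wild type and was at 0 in all knockout libraries. Of 7 listed markers of plasmacytoid dendritic cells, a main source of type I interferon, 4 were tested: Bst2, itself a member, and Irf8 rose, 1 fell and 1 was not called. The sum of the 7 was 25.1, 44.5 and 31.3 FPKM across wild type and 74.1, 73.4 and 73.6 across knockout libraries, most of it from Bst2, while the defining marker Siglech was at 0 in 5 libraries and at 0.00630 FPKM in wild type replicate 3. Of 8 endothelial markers 6 were tested, of which 5 fell and 1 was not called. With no filter on low values 6 of the 8 were lower and Tek was higher. Tek had 57, 51 and 53 reads in wild type and 114, 131 and 126 in knockout. All 5 tested osteoblast markers fell, and with no filter 5 of the 7 listed were lower and 2 not called. Of 12 listed B, T and NK cell markers only Ebf1 passed the filter. Beside these marker counts, 42.7% of all tested genes were higher in knockout and 24.6% lower. With no filter, 23.9% of all 22984 genes were higher and 15.7% lower. Every knockout library lay below every wild type library for 20.8% of all 22984 genes. In bulk RNA, fewer cells of a type and less RNA per cell cannot be told apart.

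Most interferon-stimulated genes were higher in knockout libraries. The largest ratios were those of Ifi27l2a and of the oligoadenylate synthetases Oas3 and Oas2, while Ifitm3 rose less and Ifitm1, Isg20 and Irgm1 fell. Of the 45 genes, 36 had a mean of at least 1 FPKM and were tested: 31 rose, 3 fell and 2 were not called (limma with trend on log2(FPKM + 1), two-sided, Benjamini-Hochberg adjusted p under 0.05). Of all 11083 genes tested, 42.7% were higher in knockout and 24.6% lower, 67.4% in all. The filter lets a gene pass through its knockout level alone, so all 45 were also fitted with no filter. There 37 were higher, 3 lower and 5 not called, against 23.9% and 15.7% of all 22984 genes. All 3 knockout libraries lay above all 3 wild type libraries for 38 of the 45 and below for 3, against 28.9% and 20.8% of all 22984 genes and 45.7% and 27.4% of the tested genes. The ratio of mean FPKM, knockout over wild type, was above 2 for 27 of the 45 and above 5 for 9, with a median of 2.25. Over all tested genes with reads in both groups it was above 2 for 9.07% and above 5 for 2.07%, with a median of 1.07. Over all 19432 genes with reads in both groups, which like the 45 include those under the filter, it was above 2 for 14.3% and above 5 for 3.99%, with a median of 1.04. Among the 45, the ratio differed by wild type mean, with a median of 4.27 for the 15 genes under 1 FPKM. Its median was 2.34 for the 17 at 1 to 5 FPKM. For the 13 of at least 5 FPKM the median was 1.80 and the maximum 2.54.

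On the log2(FPKM + 1) scale, on which changes are given below as knockout minus wild type ± SE and where the pseudocount shrinks the changes of low genes, the 36 tested members had a median of 0.90. The median of all tested genes was 0.085. Other scalings shift that baseline: it was 0.0069 with median-of-ratios scaling and -0.026 with quantile normalization, and the share of called genes that were higher went from 63.5% to 51.4% and 46.4%. The members' median was 0.83 and 0.81 under these scalings, and 30 rose and 3 fell under each. The fall of the neutrophil markers and the rise of most macrophage markers accompany these changes, and their part in them was not tested.

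**Figure D1:**
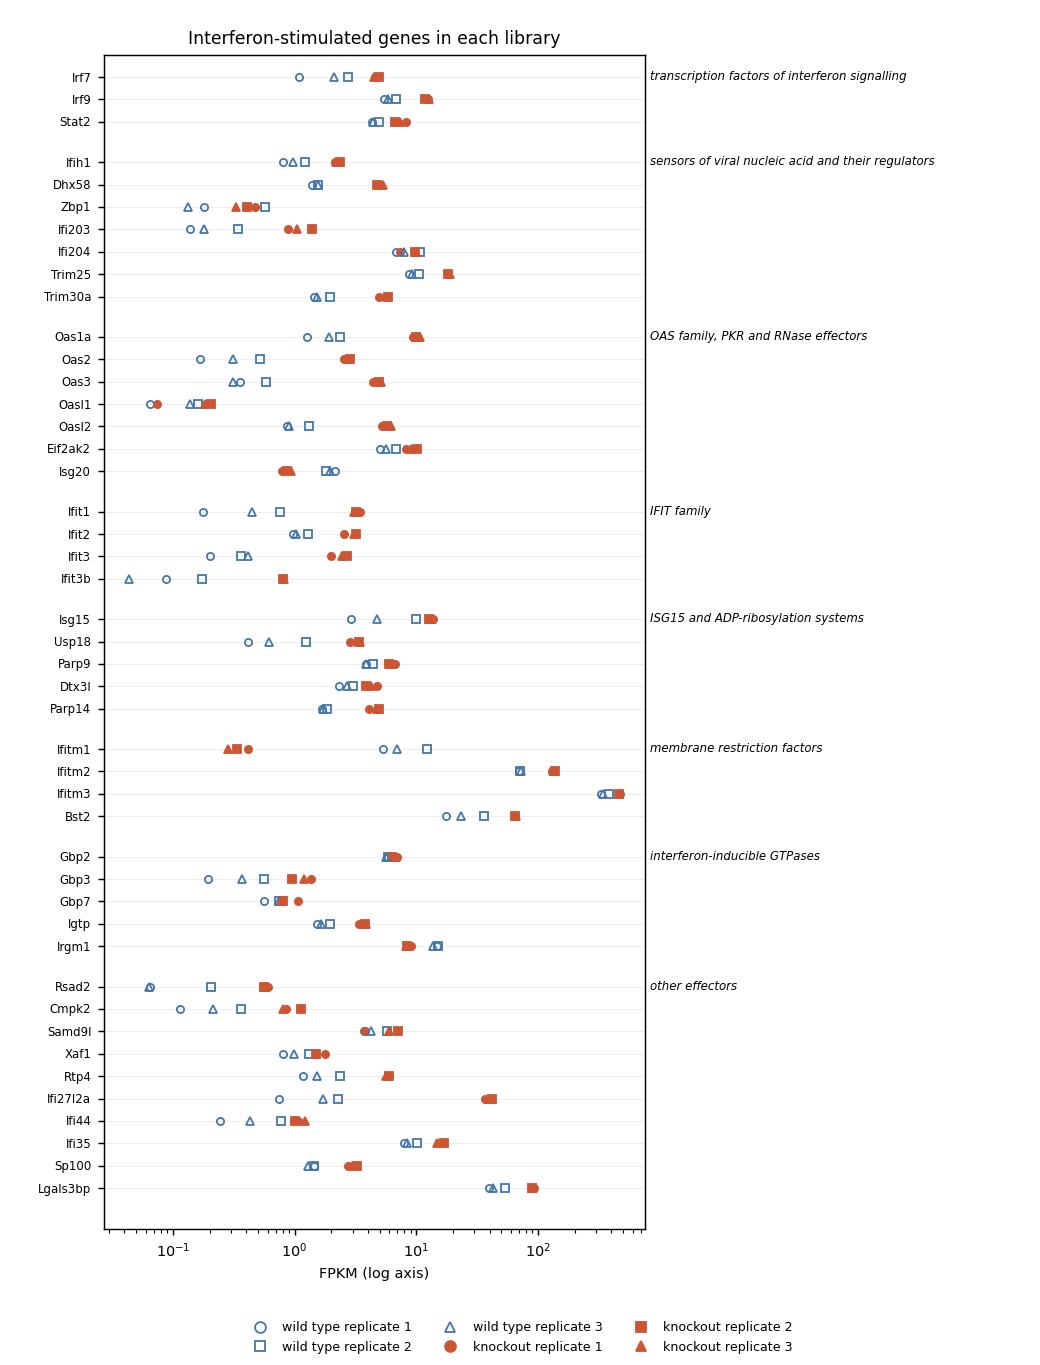
FPKM (log axis) of the 45 interferon-stimulated genes in each of the 6 libraries, by role; open blue symbols are wild type and filled red symbols knockout libraries. Knockout symbols lie to the right of all wild type symbols for 38 genes and to the left for Ifitm1, Isg20 and Irgm1.

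Promoter sequences show which of these genes carry the letters that the interferon-activated complex binds. RefSeq windows of GRCm38.p6, another build than the GRCm39 in the submitters' notes, were matched by symbol for 36 of the 45 genes and span 250 bases before to 50 after each start. The ISRE core was searched as GAAA, any 2 bases and GAAA again, on both strands, and matches may overlap each other. It was found for 20 of the 36 genes (55.6%), against 3.99% of the 27025 genes with a window. The GAS letters, TTC, any 3 bases and GAA, were found for 9 of the 36 (25%), against 9.55% of all genes. A match is a description of letters and not a bound site. Among the members called higher the ISRE core was found for 14 of 24 with a window, and among the 3 called lower for Irgm1. The median ratio of mean FPKM was 2.41 for the 20 genes with the core and 1.98 for the 16 without it, and the ranges of 0.590 to 11.5 and 0.0424 to 5.59 overlap.

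The 250 bases before the start are shown for 6 genes that were higher in knockout and carry the core, and for Irgm1 and Ifitm1, which fell with and without it. Each is written 5′ to 3′ along the gene, with ISRE cores of either strand in capitals. Isg15 lies at chr4:156200819-156201068 on the minus strand, Ifit1 at chr19:34640639-34640888 on the plus strand, Ifit3 at chr19:34583279-34583528 on the plus strand and Ifit3b at chr19:34607707-34607956 on the plus strand. Oas3 lies at chr5:120777660-120777909 on the minus strand, Bst2 at chr8:71537473-71537722 on the minus strand, Irgm1 at chr11:48871421-48871670 on the minus strand and Ifitm1 at chr7:140967826-140968075 on the plus strand.
Isg15: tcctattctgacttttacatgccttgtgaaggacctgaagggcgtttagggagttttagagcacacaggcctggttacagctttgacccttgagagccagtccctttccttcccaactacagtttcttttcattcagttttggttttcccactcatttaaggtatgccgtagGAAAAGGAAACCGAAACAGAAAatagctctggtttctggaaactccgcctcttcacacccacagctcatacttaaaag
Ifit1: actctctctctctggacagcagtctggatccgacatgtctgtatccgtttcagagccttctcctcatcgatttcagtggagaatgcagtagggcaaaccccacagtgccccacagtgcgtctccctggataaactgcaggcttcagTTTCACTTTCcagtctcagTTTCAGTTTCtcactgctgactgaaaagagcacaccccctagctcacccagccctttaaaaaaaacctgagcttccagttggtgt
Ifit3: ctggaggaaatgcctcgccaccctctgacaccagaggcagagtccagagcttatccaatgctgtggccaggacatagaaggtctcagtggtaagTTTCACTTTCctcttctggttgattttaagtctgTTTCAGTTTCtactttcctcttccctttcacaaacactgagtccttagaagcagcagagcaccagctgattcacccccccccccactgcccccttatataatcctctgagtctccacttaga
Ifit3b: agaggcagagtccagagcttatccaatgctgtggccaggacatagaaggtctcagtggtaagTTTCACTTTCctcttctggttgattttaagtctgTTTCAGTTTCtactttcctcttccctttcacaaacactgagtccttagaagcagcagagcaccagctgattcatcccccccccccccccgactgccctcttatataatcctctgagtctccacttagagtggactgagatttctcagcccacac
Oas3: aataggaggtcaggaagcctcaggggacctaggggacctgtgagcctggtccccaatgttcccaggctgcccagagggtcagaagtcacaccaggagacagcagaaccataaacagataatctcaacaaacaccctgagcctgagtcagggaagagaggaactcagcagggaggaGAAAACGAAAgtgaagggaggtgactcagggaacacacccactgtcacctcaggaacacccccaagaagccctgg
Bst2: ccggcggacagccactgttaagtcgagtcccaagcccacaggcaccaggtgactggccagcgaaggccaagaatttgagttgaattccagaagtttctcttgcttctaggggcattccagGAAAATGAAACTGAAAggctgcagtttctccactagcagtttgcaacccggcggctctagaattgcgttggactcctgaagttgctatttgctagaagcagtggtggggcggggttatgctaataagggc
Irgm1: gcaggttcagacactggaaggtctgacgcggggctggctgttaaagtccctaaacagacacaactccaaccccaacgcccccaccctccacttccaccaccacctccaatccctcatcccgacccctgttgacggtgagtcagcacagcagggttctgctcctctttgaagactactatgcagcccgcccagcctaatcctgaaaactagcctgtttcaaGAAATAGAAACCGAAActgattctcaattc
Ifitm1: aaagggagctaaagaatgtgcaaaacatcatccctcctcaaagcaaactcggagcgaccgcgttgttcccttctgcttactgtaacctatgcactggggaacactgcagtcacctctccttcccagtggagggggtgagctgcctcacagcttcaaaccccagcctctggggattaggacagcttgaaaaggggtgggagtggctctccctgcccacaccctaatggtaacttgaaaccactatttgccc
Isg15 holds 3 overlapping cores, Ifit1, Ifit3, Ifit3b, Bst2 and Irgm1 hold 2 each, and Oas3 holds 1. The Ifit3 and Ifit3b windows share an unbroken run of 169 bases that holds both cores. How the authors' counting divided reads between copies this close is uncertain.

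The 3 transcription factors of interferon signalling among the members were all higher in knockout, against 42.7% of all tested genes. Of 5 other STAT and IRF factors tested, given below, 3 rose, 1 fell and 1 was not called. Irf7, a master regulator of type I interferon genes that is itself interferon-induced, was at 1.09, 2.76 and 2.12 FPKM in the wild type libraries, in replicate order as throughout, and 4.58, 4.91 and 4.48 in the knockout libraries. The groups did not overlap, and wild type replicate 1 was lowest; the change was 0.96 ± 0.19 (limma adjusted p = 0.00221). Irf9, the DNA-binding subunit of the ISRE complex, was at 5.39, 6.83 and 5.90 FPKM in wild type and 12.6, 11.7 and 12.7 in knockout (0.93 ± 0.077, adjusted p = 1.71e-05). Stat2, its partner, was at 4.29, 4.92 and 4.41 FPKM in wild type and 8.28, 6.71 and 7.34 in knockout (0.61 ± 0.078). Irf9 showed little spread within a group next to the difference between groups. For Stat2 the knockout libraries differed 1.23-fold, and the lowest of them was 1.36-fold above the highest wild type library.

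Of the 7 sensors of viral nucleic acid and their regulators, 5 were tested, of which 4 rose and 1 was not called. Over all tested genes 42.7% were higher. Dhx58 encodes LGP2, a helicase that tunes RNA sensing, and was at 1.38, 1.57 and 1.55 FPKM in wild type and 5.00, 4.75 and 5.35 in knockout (1.27 ± 0.061, adjusted p = 7.94e-07). Its groups were 3.03-fold apart, taking the lowest knockout over the highest wild type library. Ifih1, the long-RNA sensor MDA5, went from a mean of 0.993 to 2.24 FPKM (0.70 ± 0.082). Trim25, the ubiquitin ligase that activates RIG-I, was at 8.79, 10.6 and 9.24 FPKM in wild type and 18.2, 18.4 and 18.8 in knockout (0.89 ± 0.063). Trim30a, a ligase that restrains inflammatory signalling, rose more, from 1.65 ± 0.274 to 5.53 ± 0.491 FPKM (mean ± SD, n = 3; 1.30).

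Ifi203 and Ifi204 belong to the p200 family, whose members bind DNA and are close copies. Ifi204, the relative of human IFI16, was at 6.75, 10.7 and 7.89 FPKM in wild type and 7.30, 9.80 and 9.91 in knockout. These groups overlapped and the change was not called (0.09 ± 0.16, adjusted p = 0.634). Ifi203 was lower in level, at 0.139, 0.345 and 0.180 FPKM in wild type and 0.887, 1.38 and 1.04 in knockout; under the filter of the main test, it was higher with no filter (0.78, adjusted p = 0.00219 by limma). Zbp1, a sensor of Z-form nucleic acid that can trigger necroptosis, had 16, 51 and 12 reads in wild type and 43, 36 and 29 in knockout. Its highest library was wild type replicate 2, and with no filter it was not called (adjusted p = 0.501 by limma).

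The OAS family, whose products switch on RNase L, is grouped here with PKR and Isg20. In this group 5 of the 6 tested genes rose and 1 fell, against 42.7% higher and 24.6% lower of all tested genes. The median change on the log2(FPKM + 1) scale was 1.62. Oas3 makes the RNase L activator when it binds long double-stranded RNA. Its level was 0.359, 0.587 and 0.314 FPKM in wild type (72, 119 and 64 reads) and 4.44, 4.98 and 5.09 in knockout (912, 1007 and 1026 reads). The mean ratio was 11.5 and the change 2.04 ± 0.087 (adjusted p = 3.99e-07). Oas1a was at 1.27, 2.38 and 1.91 FPKM in wild type and 9.35, 10.02 and 10.8 in knockout, a ratio of 5.42. Close copies of it lie in the same cluster, so its share of their reads is uncertain. Oas2 was at 0.168, 0.518 and 0.314 and 2.54, 2.86 and 2.88 FPKM in the same order, a ratio of 8.28. For each of the 3, knockout libraries lay within 1.15-fold of each other and far above all wild type libraries, which spread up to 3.08-fold for Oas2.

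Oasl2 and Oasl1 are OAS-like genes. Oasl2 was at 0.868, 1.31 and 0.893 FPKM in wild type and 5.26, 5.72 and 6.17 in knockout (1.74 ± 0.095, adjusted p = 1.55e-06). Oasl1, which limits translation of Irf7, had only 6, 15 and 13 reads in wild type and 7, 19 and 17 in knockout. Its groups overlapped, and with no filter it was not called (0.04, adjusted p = 0.608 by limma).

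PKR, encoded by Eif2ak2, halts translation when it binds double-stranded RNA. It was at 5.07, 6.83 and 5.64 FPKM in wild type and 8.27, 10.2 and 9.09 in knockout (0.58 ± 0.10, adjusted p = 0.00145). Isg20, an exonuclease of single-stranded RNA, went the other way. It was at 2.16, 1.82 and 1.94 FPKM in wild type and 0.794, 0.869 and 0.929 in knockout. The level fell by 0.67 ± 0.067 (adjusted p = 4.85e-05). Unlike most members, it was lowest of the wild type libraries in replicate 2.

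All 4 IFIT genes, whose products bind foreign RNA and block its translation, were higher in every knockout library than in any wild type library. The same held for 28.9% of all 22984 genes and 45.7% of the tested genes. Ifit1, which recognises RNA caps that lack a methyl group, was at 0.177, 0.764 and 0.448 FPKM in wild type and 3.42, 3.18 and 3.05 in knockout, a ratio of 6.95 (1.55 ± 0.13, adjusted p = 2.22e-05). Wild type replicates differed 4.33-fold, from 19, 83 and 49 reads, but the lowest knockout library was still 3.99-fold above the highest of them. Ifit2 went from a mean of 1.10 to 2.93 FPKM (0.91). Ifit3, which stabilises Ifit1 on RNA, was at 0.201, 0.363 and 0.415 FPKM in wild type and 1.97, 2.70 and 2.48 in knockout (1.35). Its copy Ifit3b, under the filter, had 8, 16 and 4 reads in wild type and 74, 74 and 75 in knockout (0.71 with no filter, adjusted p = 0.000121 by limma).

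The ISG15 system attaches the ubiquitin-like protein Isg15 to other proteins, and Usp18 removes it and also restrains the type I receptor. Isg15 was at 2.92, 9.98 and 4.72 FPKM in wild type and 13.7, 12.8 and 13.5 in knockout (1.19 ± 0.31, adjusted p = 0.0101). The wild type libraries spread 3.42-fold, the knockout libraries 1.07-fold, and the highest wild type library came within 1.28-fold of the lowest knockout one. Usp18 was at 0.415, 1.25 and 0.613 FPKM in wild type and 2.85, 3.39 and 3.47 in knockout (1.29 ± 0.16), with the same order of wild type libraries as Isg15. Parp14, a mono-ADP-ribosyltransferase, was at 1.68, 1.83 and 1.70 FPKM in wild type and 4.10, 4.94 and 4.77 in knockout (1.03). Parp9 and Dtx3l, which act as a complex, changed less (0.54 and 0.52), and both were highest in knockout replicate 1. Their gene models overlap, and with no strand setting given in the sources used here their reads cannot be fully told apart.

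Membrane restriction factors held the most abundant members and the largest fall. Ifitm3, which blocks fusion of virus and endosome, was at 327, 384 and 339 FPKM in wild type and 474, 460.4 and 460.4 in knockout (0.41 ± 0.058, adjusted p = 0.000349). Its near relative Ifitm2 was at 69.4, 71.6 and 72.1 and 129.7, 137 and 134 FPKM in the same order (0.90 ± 0.033), with hardly any spread within a group. Ifitm1, found mainly at the cell surface, was at 5.31, 12.2 and 6.90 FPKM in wild type and 0.415, 0.337 and 0.282 in knockout. It had 15, 12 and 10 reads in the knockout libraries, a wild type to knockout ratio of 23.6 (-2.69 ± 0.23, adjusted p = 2.20e-05). Its wild type order, highest in replicate 2 and lowest in replicate 1, was that of the neutrophil genes S100a8 and Ngp. That order does not set Ifitm1 apart. It was seen for 34 of the 45 members, most of them higher in knockout, and for 31.4% of all tested genes. S100a8, a calprotectin subunit, was at 328, 999.6 and 532 FPKM in wild type against 1.16, 0.930 and 1.06 in knockout. The part of neutrophils in the Ifitm1 values was not tested. Bst2, the tetherin that holds budding virus at the surface, was at 17.6, 36.1 and 23.4 FPKM in wild type and 65.2, 65.1 and 65.7 in knockout (1.37 ± 0.21). Knockout libraries agreed within 1.01-fold, while wild type libraries spread 2.05-fold.

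The interferon-inducible GTPases act on intracellular pathogens and respond strongly to type II interferon. Of 3 tested genes 2 rose and 1 fell, against 42.7% higher and 24.6% lower of all tested genes. Gbp2 was at 5.81, 5.89 and 5.67 FPKM in wild type and 6.94, 6.32 and 6.82 in knockout (0.18 ± 0.050, adjusted p = 0.0131); this call was lost with median-of-ratios scaling (0.10, adjusted p = 0.098), with quantile normalization (0.068, adjusted p = 0.238) and without wild type replicate 3 (adjusted p = 0.053) or knockout replicate 3 (adjusted p = 0.0526). Igtp, also called Irgm3, was at 1.54, 1.96 and 1.65 FPKM in wild type and 3.41, 3.81 and 3.86 in knockout (0.79 ± 0.075). Irgm1, a regulator of the same family that holds other GTPases inactive on host membranes, was at 14.7, 15.2 and 13.7 FPKM in wild type and 9.05, 8.40 and 8.24 in knockout (-0.70 ± 0.054, adjusted p = 1.11e-05). Igtp and Irgm1 moved in opposite directions, and both windows carry an ISRE core. Gbp3 and Gbp7 were under the filter. With none, Gbp3 was higher (0.67, from 0.374 to 1.17 FPKM), and Gbp7 was not called (adjusted p = 0.189 by limma).

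Among the other effectors Ifi27l2a, a small protein of the interferon alpha-inducible 27 family, had the largest change of all members. It was at 0.749, 2.28 and 1.72 FPKM in wild type (27, 83 and 63 reads) and 37.0, 42.2 and 38.6 in knockout (1364, 1534 and 1398 reads), a ratio of 24.8 (4.01 ± 0.20, adjusted p = 9.43e-07). Every knockout library was at least 16.2-fold above every wild type library. Its gene model overlaps that of Ifi27, which was at 22.5, 27.3 and 24.3 FPKM in wild type and 69.6, 70.5 and 67.3 in knockout (1.45); Ifi27 had the smaller ratio, 2.80. Rtp4, a receptor-transporting protein that also inhibits viral replication, was at 1.17, 2.38 and 1.52 FPKM in wild type and 5.96, 5.94 and 5.60 in knockout (1.37). Lgals3bp, a secreted galectin-binding glycoprotein, was at 39.3, 53.1 and 42.8 FPKM in wild type and 93.4, 89.6 and 90.6 in knockout (1.01 ± 0.096). Ifi35 and Sp100, a component of nuclear bodies, changed by 0.78 and 0.74, and the proapoptotic Xaf1 by 0.35 (adjusted p = 0.0131 by limma).

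Samd9l, a restriction factor of poxviruses, was at 3.70, 5.76 and 4.21 FPKM in wild type and 3.81, 7.11 and 5.99 in knockout. The groups overlapped, knockout replicate 1 lying among the wild type values, and the change was not called (0.24 ± 0.20, adjusted p = 0.315); without that library it was called (0.46, adjusted p = 0.0299). Rsad2, whose product viperin makes a chain-terminating nucleotide, and its neighbour Cmpk2, a mitochondrial nucleotide kinase, were under the filter. Rsad2 had 10, 32 and 10 reads in wild type and 95, 87 and 87 in knockout, and Cmpk2 15, 48 and 28 and 113, 148 and 106. With no filter both were higher (0.50 and 0.65, adjusted p = 0.000814 and 0.00319 by limma), as was Ifi44 (0.51, from 0.487 to 1.10 FPKM).

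**Figure D2:**
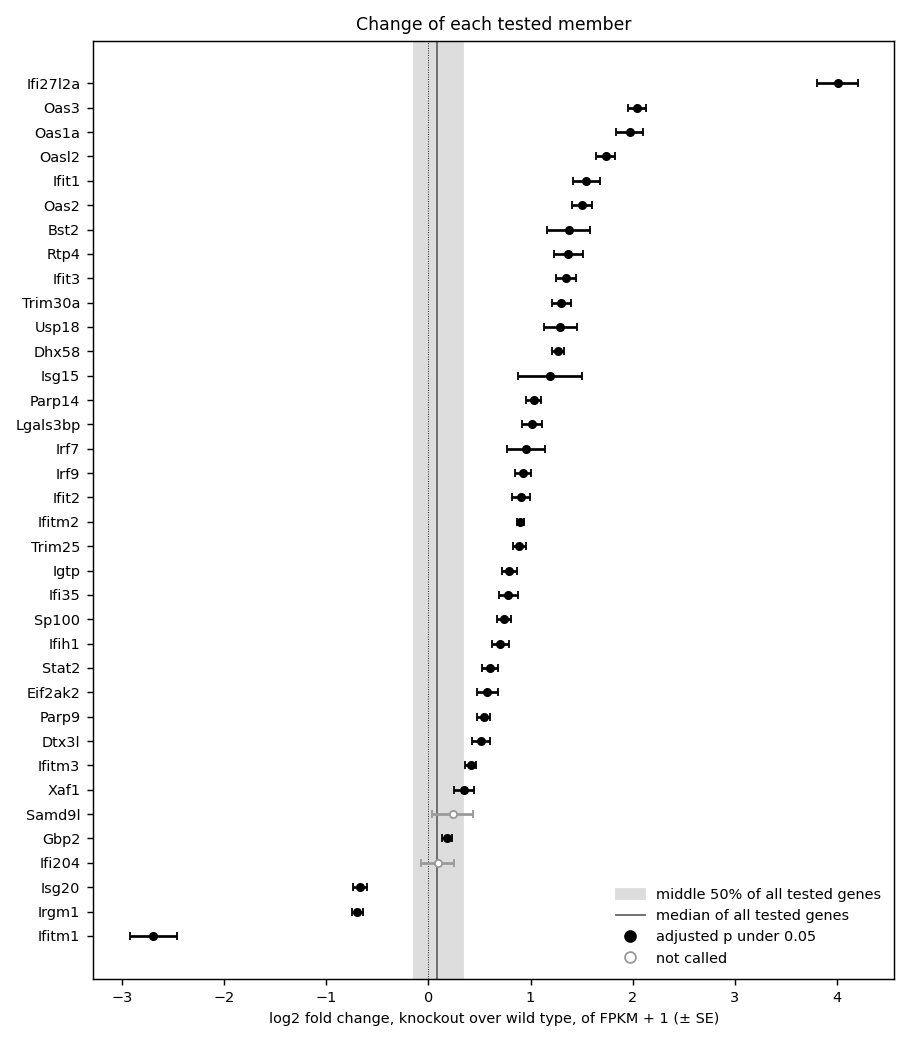
Log2 fold change of FPKM + 1, knockout over wild type, with its SE, for the 36 tested members; the band marks the middle 50% of all 11083 tested genes and the line their median of 0.085. Ifi27l2a lies at 4.01 and Ifitm1 at -2.69, and open circles mark Samd9l and Ifi204, which were not called.

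The wild type libraries were less alike for these genes than the knockout libraries. Wild type replicate 2 was the highest of its group for 42 of the 45 genes (93.3%) and replicate 1 the lowest for 36 (80.0%), against 50.8% and 42.5% of all tested genes. The full order of replicate 2 over 3 over 1 was seen for 34 genes (75.6%), against 31.4% of all tested genes. All 7 tested neutrophil markers had that order too, and of 14 tested macrophage markers 4 did. The SD of log2(FPKM + 1) was larger in wild type than in knockout for 33 of the 45 genes, against 41.9% of all tested genes. Its median over the 45 was 0.147 in wild type and 0.0779 in knockout. The part of neutrophil and macrophage transcript in these orders was not tested.

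The summed macrophage markers were lowest in knockout replicate 1, and 12 of the 14 tested markers had the order of replicate 2 over 3 over 1. Of the 45 interferon-stimulated genes 12 had that order too (26.7%), a share near the 27.0% of all tested genes. Ifi204 and Samd9l, the members not called, were lowest of the knockout libraries in replicate 1. The summed level of the 45 genes was 550.2, 684 and 586 FPKM in wild type and 990.1, 994 and 989 in knockout libraries, and Ifitm3 was the most abundant member in every library. Without wild type replicate 2 and knockout replicate 1, 33 of the 36 tested members rose and 3 fell, with Samd9l (0.61, adjusted p = 0.000529) and Ifi204 (0.39, adjusted p = 0.00177) then called.

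**Figure D3:**
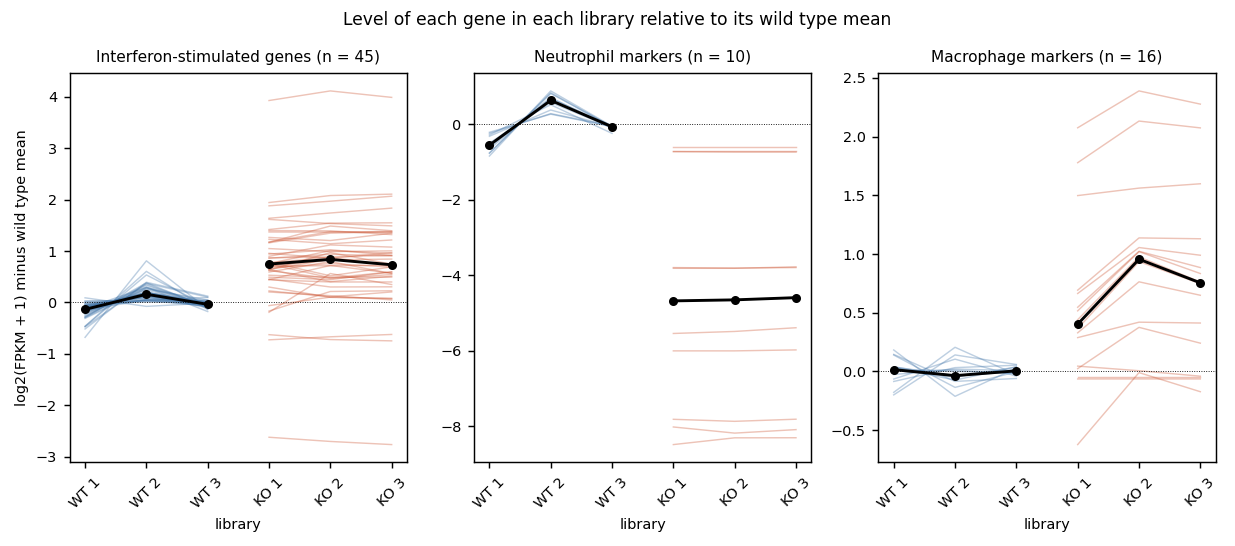
Log2(FPKM + 1) minus the gene's wild type mean in each library, for the 45 interferon-stimulated genes, 10 neutrophil markers and 16 macrophage markers (thin lines, genes; black, their median; WT, wild type; KO, knockout; the vertical scales differ). Among wild type libraries, members and neutrophil markers are both highest in replicate 2, and the median of the macrophage markers is lowest among the knockout libraries in replicate 1.

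Upstream of these genes, the receptor and its kinases changed unevenly. Of 21 interferon ligands looked for, only Ifnz had values here, with 1, 1 and 1 reads in wild type and 3, 2 and 2 in knockout, and the other 20 were not analysed here. Of the 8 tested receptor and kinase genes, 6 rose, 1 fell and 1 was not called, against 42.7% higher and 24.6% lower of all tested genes. Ifnar1 was at 14.6, 14.8 and 14.8 FPKM in wild type and 22.6, 21.0 and 21.2 in knockout (0.52 ± 0.041, adjusted p = 1.20e-05), and Ifnar2 at 6.93, 7.11 and 7.44 and 10.1, 10.4 and 10.3 FPKM (0.47). The type II receptor chain Ifngr1 changed by 0.31, and Ifngr2 by 0.02 (adjusted p = 0.66); with the other scalings Ifngr2 was lower (-0.072 with median of ratios, and -0.11 with quantile normalization, which called it at adjusted p = 0.0201). Il10rb, shared by the receptors of interleukin 10 and type III interferon, changed by 0.87.

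Jak1, the kinase common to all interferon receptors, was at 41.4, 44.98 and 41.8 FPKM in wild type and 93.9, 83.3 and 87.9 in knockout (1.03 ± 0.052, adjusted p = 1.00e-06). Jak2, which serves the type II receptor, fell, from 6.20 ± 0.405 to 3.84 ± 0.126 FPKM (mean ± SD, n = 3; -0.57). Tyk2 changed by 0.23, a call that was lost with quantile normalization (0.12, adjusted p = 0.0573). The macrophage-enriched Irf5 (0.82) and Irf8 (0.30) and the repressor Irf2 (0.33) rose. Irf1, which type II interferon induces through GAS, was at 8.92, 8.76 and 8.52 FPKM in wild type and 8.11, 7.86 and 7.56 in knockout (-0.14 ± 0.045, adjusted p = 0.0255), and lost its call when any of 4 libraries was left out, namely wild type 1 (adjusted p = 0.0845), wild type 2 (0.0569), knockout 2 (0.0522) and knockout 3 (0.098). The fall of Irf1 was larger with the other scalings, at -0.22 with median of ratios (adjusted p = 0.0028) and -0.26 with quantile normalization (adjusted p = 0.0011). Irf3, which drives interferon beta, was not called (-0.01, adjusted p = 0.852), nor was it with median of ratios (-0.096) or quantile normalization (-0.14, adjusted p = 0.059).

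**Figure D4:**
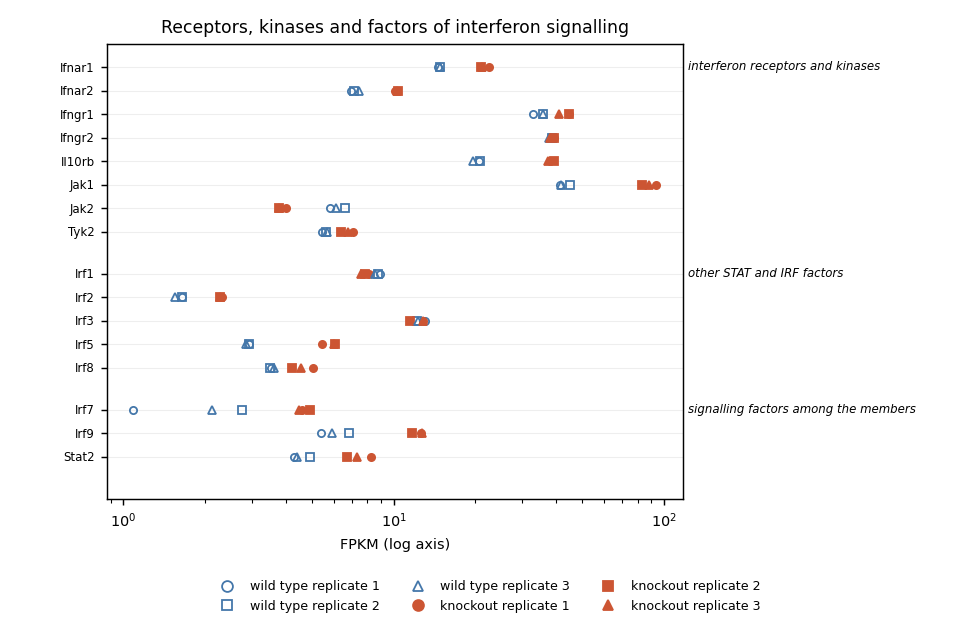
FPKM (log axis) of the tested receptors, kinases, IRF genes and Stat2 in each library; open blue symbols are wild type and filled red symbols knockout libraries. Jak1, Irf9 and Ifnar1 lie higher and Jak2 lower in every knockout library, while Irf3 and Ifngr2 overlap.

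Genes that lead to interferon production moved mostly upward. Of 14 tested sensors, adaptors and kinases, 11 rose and 3 were not called, against 42.7% of all tested genes higher in knockout. With either other scaling 1 of the 3 was called lower, Ticam1, an adaptor named here after its values were seen. Cgas, the cytosolic DNA sensor, was at 1.69, 1.82 and 1.79 FPKM in wild type and 4.42, 4.70 and 4.58 in knockout (1.01 ± 0.052, adjusted p = 1.17e-06). Ddx58, the RNA sensor RIG-I, was at 5.35, 6.43 and 5.59 FPKM in wild type and 10.4, 9.78 and 9.998 in knockout (0.71). Unc93b1, which carries nucleic acid receptors to endosomes, changed by 0.81 and the adaptor Myd88 by 0.39. Macrophages express both strongly. Of 14 tested macrophage markers 11 rose and 3 were not called, with changes from -0.27 (C1qa) to 2.25 (Adgre1). The part of macrophage transcript in these changes was not tested. Of 17 tested negative regulators 8 were higher, 7 lower and 2 not called, against 42.7% higher and 24.6% lower of all tested genes. The share that was higher is thus near that of all genes, while the share that was lower is above theirs. Ptpn6, the phosphatase SHP-1 of blood cells, rose most (1.69, from 10.9 to 37.2 FPKM), along with the RNA editor Adar (0.55) and Pias1 (0.48). Samhd1, which depletes nucleotides and limits interferon responses, fell from 49.0 to 32.8 FPKM (-0.57).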

How the data were processed

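The labels name TRIzol for RNA extraction and the VAHTS Universal V6 kit for the libraries. The authors deposited FPKM values, used here as deposited. The submitters' processing notes list HISAT2, HTSeq, R 3.2.0 and build GRCm39. Not given in the sources used here: the annotation, filters and strand setting. FPKM does not correct for composition. Whole reads could be recovered from the FPKM of 22983 of the 22984 genes, within a tolerance of 1e-06 reads, and gave the depths. Counts of libraries of 1 group differed beyond sampling noise (chi-square per gene 3.72 to 21.5).

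Genes with a mean of at least 1 FPKM (11083) were fitted as log2(FPKM + 1) with limma 3.58.1 (trend) in R 4.3.3, p-values adjusted over all of them by Benjamini-Hochberg. The fit was tested on simulated data. Alternatives changed 1 choice at a time: scaling, pseudocount 0.1, no filter or a mean of at least 5 FPKM, no trend, robust estimation, voom on recovered reads, the replicate block, and libraries left out. Members and lists were chosen with earlier results of these data known. Any member may be named; outside them, tested receptors, kinases, STAT and IRF genes, and the 4 genes per other list with the smallest p. Gene models of 16 of the 45 members overlap another gene in RefSeq's GRCm38.p6. Planned protein comparisons were not made, and 1 gene of the pathway lists is not reported here.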

Additional observations from a re-analysis of the deposited data

How the results depend on the processing

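Of the 36 tested members, 33 kept their direction and their side of the threshold under all 16 alternatives that tested them; the exceptions were Gbp2, Samd9l and Ifi204. Ifi204 turned lower with quantile normalization (-0.035) and without wild type replicate 1 (-0.041), not called in either, and was at 0.39 without wild type replicate 2 and knockout replicate 1 together. A mean of at least 5 FPKM left 17 members, of which 14 rose and 1 fell, with a median of 0.78, since fewer low genes are then tested. The median was 1.06 with a pseudocount of 0.1, 1.10 with voom on recovered reads and 0.78 with no filter. With the replicate number as a block, 32 rose and 3 fell, and Samd9l was called (limma adjusted p = 0.0331). Deviations of same-numbered libraries correlated by 0.107, 0.124 and 0.0199 for replicates 1 to 3. Those of differently numbered libraries correlated by -0.129 to 0.0598, below the values of replicates 1 and 2. The labels do not say what the numbers mark, and the main fit did not take them as pairs. With 1 library left out, 30 to 32 members rose, 3 fell, and the median ran from 0.85 to 0.97; of all genes, 6556 to 7542 were called. For the named genes outside the members, whose alternatives were added after seeing the data, 21 of 25 kept direction and call. Ifngr2 turned lower with median of ratios (-0.072) and quantile normalization (-0.11), and Irf3, never called, turned higher without wild type replicate 1 (0.018) or knockout replicate 2 (0.037), against -0.054 without wild type replicate 2 and knockout replicate 1 together. The exceptions among calls were Tyk2 and Irf1. Oasl1, Zbp1, Ifit3b and Rsad2 had under 100 reads in every library, which limits the precision of their values.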

Other observations

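Interferon-stimulated genes outside the 47, likewise listed with earlier results of these data known, were mostly higher in knockout libraries. Of 70 further such genes with values, 48 were tested: 38 rose, 1 fell and 9 were not called, against 42.7% higher and 24.6% lower over all tested genes. With no filter, 48 of the 70 were higher, 3 lower and 19 not called, against 23.9% and 15.7% of all 22984 genes. Shisa5, an endoplasmic reticulum protein linked to cell death, was at 55.1, 54.3 and 54.1 FPKM in the wild type libraries and 88.4, 89.1 and 89.2 in the knockout libraries (0.70 ± 0.028, adjusted p = 3.05e-07 by limma). Psmb9, an immunoproteasome subunit that type II interferon induces, was at 1.70, 2.01 and 1.70 FPKM in wild type and 6.38, 6.17 and 6.37 in knockout (1.38). The tested gene that fell was Tgtp2, a T cell-specific GTPase of the same family as Igtp and Irgm1. It was at 2.41, 2.03 and 2.12 FPKM in wild type and 0.0765, 0.112 and 0.173 in knockout (-1.51). The division of reads between it and its close copy Tgtp1 is uncertain. The count of tested genes that fell depended on the scaling, at 4 with median of ratios and 5 with quantile normalization. Without knockout replicate 2 it was 2, and without wild type replicate 2 or 3 it was 0. Tgtp2 itself fell under the filter whenever 1 wild type library was left out.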
